A study of Homo sapiens with 12 samples.

Results

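The genes described here are 10 immediate early genes and close relatives: the zinc finger factors EGR1, EGR2 and EGR3, the immediate early response genes IER2 and IER3, the orphan nuclear receptor NR4A1, the Krüppel-like factors KLF2, KLF4 and KLF6, and the phosphatase DUSP1. They were chosen by name, from gene families known to answer growth signals and stress, with their values in these libraries already known. Their differences between the groups are therefore given as a description, with the standard error (SE) of each log2 fold change and with no p-value. All 10 were found among the 58031 gene names kept from the table, and 8 of them were among the 20244 genes tested, those that reached 0.5 RPKM in 3 or more libraries. RPKM is a read count scaled for the length of the gene and for the read total of the library. EGR2 and EGR3 lay below that level and are described by their values alone.

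The study silenced PRKCI or SOX2 with lentiviral short hairpin RNA in spheroid cultures of H1299 (a lung carcinoma line of human origin that lacks p53) and sequenced the RNA. The 12 libraries form 4 groups of 3: PRKCI_KD and its non-targeting control NT1, which the labels place on lane 8 of a flow cell, and SOX2_KD and its non-targeting control NT2, which they place on lane 7 of another. All 4 groups come from the same line and carry a hairpin; the labels give neither the number of hairpins per target nor whether replicates were separate cultures, so spreads and p-values measure these libraries and may be technical. PRKCI codes for an atypical protein kinase C that acts in cell polarity, and SOX2 for a transcription factor of stem cells. The comparisons asked which transcripts differ between each knockdown and its control.

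Immediate early genes are transcribed within minutes of a stimulus without new protein synthesis. Signals through the RAS and ERK kinases reach serum response factor and its ternary complex partners, signals through cAMP and calcium reach CREB, and the ERK5 kinase reaches MEF2 factors, which drive KLF2 and KLF4 in endothelial cells. The products are mostly short-lived transcription factors, and some, such as the MAP kinase phosphatase DUSP1, turn the signal off again; many of the messages are also cleared quickly through AU-rich elements.

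The read totals recovered from the values lay between 77.1 and 124.3 M reads per library. PRKCI was at 2.43, 2.58 and 2.49 RPKM in PRKCI_KD, against 13.8, 14.3 and 16.4 RPKM in NT1. SOX2 was at 0.523, 0.582 and 0.588 RPKM in SOX2_KD, against 1.41, 1.48 and 1.55 RPKM in NT2, but its values did not all correspond to whole reads. SOX2 was also lower in PRKCI_KD, at 1.78, 2.27 and 2.01 RPKM, against 3.15, 2.98 and 2.91 RPKM in NT1 (log2 fold change -0.41, SE 0.06, limma adjusted p = 0.000251). The keratin genes KRT8 and KRT18 and the mesenchymal gene VIM were at 34.9 RPKM or more in every library, while the epithelial genes EPCAM and CDH1 did not exceed 0.555 and 0.0677 RPKM. Of the immune and endothelial markers, PTPRC, CD3E, PECAM1, CDH5 and VWF did not exceed 0.0991 RPKM in any library, and CD68, a macrophage marker, lay between 17.4 and 35.8 RPKM. The fibroblast markers COL1A1, COL3A1 and PDGFRB did not exceed 1.07 RPKM. The cadherin gene CDH2 averaged 11.4 RPKM in PRKCI_KD and 12.8 RPKM in NT1, and 0.348 RPKM in SOX2_KD and 0.602 RPKM in NT2. The fibronectin gene FN1 averaged 8.41 RPKM in PRKCI_KD and 27 RPKM in NT1, and 0.221 RPKM in SOX2_KD and 0.268 RPKM in NT2. The 2 pairs thus differed in more than the targeted gene, and pair and flow cell cannot be told apart. In bulk RNA, fewer cells that express a gene and less RNA per cell cannot be told apart.

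EGR1 had the largest log2 fold change of RPKM + 1 of the 8 genes in each knockdown; with a pseudocount of 0.1, that of NR4A1 in PRKCI_KD was larger, 2.75 against 2.09 for EGR1. EGR1 encodes a zinc finger transcription factor that binds GC-rich sites and is a standard readout of ERK signaling. The gene lies on chromosome 5 from 138465490 to 138469315 (GRCh38, plus strand, 2 blocks after merging the exons of all transcripts). It was at 54.5, 48.1 and 48.2 RPKM in PRKCI_KD, against 11.9, 9.49 and 14.3 RPKM in NT1. In the other pair it was at 15.1, 13.8 and 13.7 RPKM in SOX2_KD, against 100 (to 3 digits), 86.8 and 87.6 RPKM in NT2. The groups of each pair did not overlap, and the differences ran in opposite directions. The values rest on 2830 reads or more per library, with 16023, 14344 and 13225 reads in PRKCI_KD and 4427, 2830 and 4384 reads in NT1. EGR1 averaged 50.3 ± 3.68 RPKM in PRKCI_KD and 11.9 ± 2.38 RPKM in NT1 (SD, n = 3 each), a ratio of 4.24 and a log2 fold change of RPKM + 1 of 2.01 (SE 0.12). It averaged 14.2 ± 0.756 RPKM in SOX2_KD and 91.5 ± 7.43 RPKM in NT2, a ratio of 0.155 and a log2 fold change of -2.60 (SE 0.12). Of all 20244 genes tested, 38 had a larger log2 fold change in PRKCI_KD and 2 had a lower one in SOX2_KD. EGR1 was highest in NT2, then in PRKCI_KD, and the values of SOX2_KD and NT1, the lowest groups, overlapped.

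EGR2 and EGR3, which encode factors with closely related zinc fingers, were at much lower levels. EGR2 (chromosome 10, 62811996 to 62919900, minus strand) was at 0.168, 0.108 and 0.0961 RPKM in PRKCI_KD, against 0.0888, 0.0856 and 0.083 RPKM in NT1, which corresponds to 58, 38 and 31 reads against 39, 30 and 30 reads. It was at 0.129, 0.0852 and 0.124 RPKM in SOX2_KD, against 0.384, 0.387 and 0.351 RPKM in NT2, from 59, 29 and 38 reads against 130, 156 and 100 reads. EGR2 was therefore lower in every SOX2_KD library than in every NT2 library, at a ratio of means of 0.301, while the lowest PRKCI_KD library lay just above the highest NT1 library. EGR3 was at 0.0924, 0.0673 and 0.0612 RPKM in PRKCI_KD, against 0.0744, 0.0152 and 0.063 RPKM in NT1, values that overlap and that rest on as few as 7 reads. It was at 0.292, 0.31 and 0.244 RPKM in SOX2_KD, against 0.507, 0.431 and 0.499 RPKM in NT2, a ratio of means of 0.588 without overlap. Exons of EGR3 share 164 bases with a non-coding gene on the other strand, and because the library kit does not mark strand, reads from such partners cannot be told apart.

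The promoters of EGR1 and EGR2 are shown because both hold the CArG box, the binding site of serum response factor. Each window runs from 250 bases before to 50 bases after a RefSeq start site (GRCh38.p14), 5′ to 3′ on the strand of the gene, with CArG boxes in capitals.
EGR1, chr5:138465229-138465528, plus strand: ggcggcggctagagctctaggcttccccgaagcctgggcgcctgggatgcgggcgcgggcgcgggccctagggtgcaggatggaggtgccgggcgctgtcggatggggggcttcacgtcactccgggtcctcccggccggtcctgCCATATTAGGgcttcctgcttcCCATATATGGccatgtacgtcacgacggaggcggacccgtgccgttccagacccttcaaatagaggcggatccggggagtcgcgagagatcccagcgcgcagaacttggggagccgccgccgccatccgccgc
EGR2, chr10:62816317-62816616, minus strand: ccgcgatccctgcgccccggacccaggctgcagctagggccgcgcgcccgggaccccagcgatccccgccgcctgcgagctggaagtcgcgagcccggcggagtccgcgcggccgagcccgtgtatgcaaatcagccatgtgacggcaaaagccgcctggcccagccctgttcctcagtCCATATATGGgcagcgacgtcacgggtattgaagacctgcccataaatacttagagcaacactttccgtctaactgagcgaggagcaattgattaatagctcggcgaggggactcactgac
The EGR1 window held 2 CArG boxes, CCATATTAGG at positions -105 to -96 and CCATATATGG at positions -83 to -74, counted from the start site. EGR2 has windows at 3 start sites, and the one shown held CCATATATGG at positions -71 to -62, the same letters as in EGR1. A CArG box occurred in 1.29% of the 35116 promoter windows in the table, on either strand. The table held windows for 8 of the 10 genes, all but EGR3 and IER3, and EGR1 and EGR2 were the 2 whose windows held the box; a match is a description of the letters and no measure of binding.

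IER2 and IER3 are short genes of the same early wave. IER2, a nuclear protein gene on chromosome 19 (13150415 to 13154908), was at 90.6, 77.1 and 74.1 RPKM in PRKCI_KD, against 63.9, 47.7 and 54.6 RPKM in NT1. It was at 49.5, 40.0 and 38.9 RPKM in SOX2_KD, against 94.6, 77.0 and 73.3 RPKM in NT2. Neither pair overlapped. The log2 fold changes were 0.54 (SE 0.13) in PRKCI_KD and -0.92 (SE 0.13) in SOX2_KD, with ratios of means of 1.45 and 0.524. The levels of NT2 and PRKCI_KD overlapped at the top, and those of NT1 and SOX2_KD at the bottom. Exons of IER2 share 946 bases with an antisense gene.

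IER3 encodes a stress-inducible regulator of cell survival. The gene lies in the major histocompatibility region of chromosome 6 (30743199 to 30744554, 1 block after merging the exons of all transcripts). The table listed it 6 times, 5 times at 0 in every library; the entry with values was used. IER3 was at 30.2, 27.2 and 26.3 RPKM in PRKCI_KD, against 16.7, 13.4 and 15.1 RPKM in NT1. It was at 20.6, 18.5 and 17.8 RPKM in SOX2_KD, against 26.3, 21.4 and 21.3 RPKM in NT2. Again neither pair overlapped, but the differences were of unequal size, with log2 fold changes of 0.85 (SE 0.10) and -0.26 (SE 0.10). The groups stood in the order PRKCI_KD, NT2, SOX2_KD and NT1 from high to low, with no overlap between neighbours. Exons of IER3 share 359 bases with the antisense gene IER3-AS1.

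NR4A1 encodes an orphan nuclear receptor, also called Nur77, that acts without a known natural ligand and is induced within minutes by many stimuli. The gene (chromosome 12, 52022832 to 52059507) was at 4.29, 3.67 and 3.57 RPKM in PRKCI_KD, against 0.517, 0.45 and 0.492 RPKM in NT1. These values correspond to 2928, 2542 and 2278 reads in PRKCI_KD and to 449, 312 and 352 reads in NT1. Among the 10 genes it showed the highest ratio of PRKCI_KD to NT1, 7.9, and because its level was low the log2 fold change of RPKM + 1 was 1.70 (SE 0.08). It was at 1.59, 1.3 and 1.33 RPKM in SOX2_KD, against 2.51, 2.12 and 1.92 RPKM in NT2, with a ratio of 0.644 and a log2 fold change of -0.40 (SE 0.08). NR4A1 was lowest in NT1 and highest in PRKCI_KD, and no neighbouring groups overlapped. Its exons share 754 bases with a non-coding gene on the other strand.

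The Krüppel-like factors did not move as one. KLF2 and KLF4 encode factors of quiescence and differentiation that are known from endothelial and epithelial cells, KLF4 also as a reprogramming factor, and KLF6 encodes a widely expressed factor described as a tumor suppressor. KLF2 (chromosome 19, 16324817 to 16327874) was at 20.5, 19.0 and 17.6 RPKM in PRKCI_KD, against 10.9, 9.84 and 7.56 RPKM in NT1. It was at 1.36, 1.2 and 1.29 RPKM in SOX2_KD, against 2.08, 2.19 and 2.33 RPKM in NT2. The log2 fold changes were 0.95 (SE 0.10) in PRKCI_KD and -0.49 (SE 0.10) in SOX2_KD, and the groups of each pair stood apart.

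KLF4 (chromosome 9, 107484852 to 107490482) was at 9.84, 8.61 and 8.94 RPKM in PRKCI_KD, against 5.27, 4.72 and 4.26 RPKM in NT1. It was at 1.37, 1.33 and 1.27 RPKM in SOX2_KD, against 1.7, 1.52 and 1.5 RPKM in NT2. The difference in PRKCI_KD had a log2 fold change of 0.82 (SE 0.07), and the small one in SOX2_KD of -0.15 (SE 0.07). For KLF2 and KLF4 both groups of the first pair lay above both groups of the second.

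KLF6 (chromosome 10, 3775996 to 3785281) had the reverse arrangement. It was at 15.7, 16.2 and 17.5 RPKM in PRKCI_KD, against 16.7, 17.5 and 20.4 RPKM in NT1, and these groups overlapped (log2 fold change -0.13, SE 0.07). It was at 56.9, 60.1 and 60.4 RPKM in SOX2_KD, against 83.1, 88.3 and 88.1 RPKM in NT2, a log2 fold change of -0.54 (SE 0.07) without overlap. Of the 8 genes above the level filter, KLF6 was the only one whose mean was not higher in PRKCI_KD than in NT1.

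DUSP1, which removes phosphate from the MAP kinases p38, JNK and ERK, had a coefficient of variation of at most 5.22% in each of the 4 groups. The gene (chromosome 5, 172768090 to 172771195, minus strand) was at 37.8, 36.4 and 35.6 RPKM in PRKCI_KD, against 14.6, 14.5 and 15.9 RPKM in NT1. It was at 10.7, 9.77 and 9.99 RPKM in SOX2_KD, against 20.6, 19.6 and 20.1 RPKM in NT2. The log2 fold changes were 1.23 (SE 0.05) and -0.92 (SE 0.05), with ratios of means of 2.44 and 0.505. The groups stood in the order PRKCI_KD, NT2, NT1 and SOX2_KD, all apart. The promoter of DUSP1 is shown because it was the one window among those of the 8 genes that held the full cAMP response element TGACGTCA, in capitals, which occurred in 1.85% of all windows.
DUSP1, chr5:172771146-172771445, minus strand: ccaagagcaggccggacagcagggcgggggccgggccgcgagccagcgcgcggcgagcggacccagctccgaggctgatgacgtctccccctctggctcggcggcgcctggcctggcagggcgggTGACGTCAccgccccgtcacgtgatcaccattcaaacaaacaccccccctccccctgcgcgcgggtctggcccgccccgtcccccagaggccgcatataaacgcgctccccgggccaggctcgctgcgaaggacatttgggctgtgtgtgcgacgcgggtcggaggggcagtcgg
The element stood at positions -125 to -118, and a TATA box, spelled TATAAA, at positions -30 to -25. The shorter motif TGACG was more common, in 5 of the 11 windows of these 8 genes and in 24.6% of all windows, counting both strands; its matches in DUSP1 include those inside the full element. The EGR site GCGNGGGCG occurred in 5 of the 11 windows, of EGR1, EGR2, KLF2, KLF4 and KLF6, and in 9.43% of all windows. The ETS site, searched only as CCGGAA, occurred in 2 of the 11, of IER2 and NR4A1, and in 17.2% of all windows. Other spellings of ETS sites were not searched, so a window without CCGGAA may still hold a site for ternary complex factors.

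**Figure D1:**
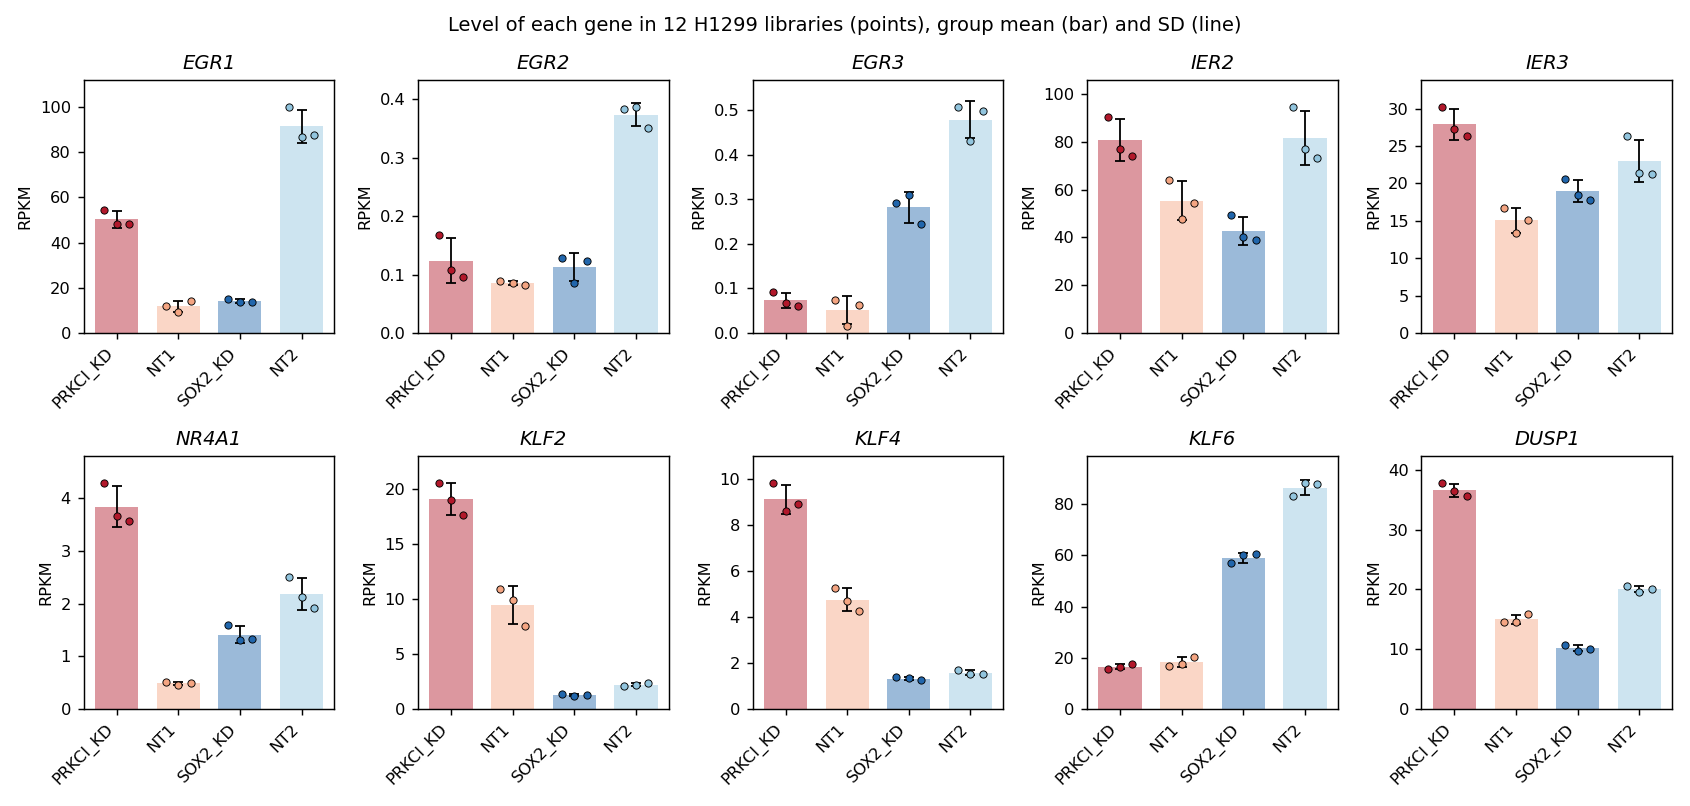
RPKM of each of the 10 genes (vertical axis, starting at 0) in the 12 libraries, by group; points are libraries, bars group means and lines the SD (n = 3). EGR1 reached 50.3 RPKM in PRKCI_KD and 11.9 RPKM in NT1, and 14.2 RPKM in SOX2_KD and 91.5 RPKM in NT2, while KLF2 and KLF4 were high in PRKCI_KD and NT1 and KLF6 in SOX2_KD and NT2.

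Set side by side, the 8 genes above the level filter differed from their controls in opposite directions in the 2 knockdowns, except KLF6. In the limma fit over all genes, 7 of the 8 passed an adjusted p of 0.05 as higher in PRKCI_KD, where 45.1% of all genes passed, 18.2% as higher and 26.9% as lower; KLF6 did not pass. In SOX2_KD, 6 of the 8 passed as lower, where 8.22% of all genes passed, 3.60% as higher and 4.62% as lower; IER3 and KLF4 did not pass. As the genes were chosen with these values known, nothing is read from the counts. The libraries of SOX2_KD lay wholly below those of NT2 in all 10 genes, and 18.2% of all genes tested showed that arrangement. The libraries of PRKCI_KD lay wholly above those of NT1 in 8 of the 10, all but EGR3 and KLF6, against 21.0% of all genes tested. The median log2 fold change of the 8 genes was 0.90 in PRKCI_KD and -0.51 in SOX2_KD, beside -0.035 and -0.016 over all genes. Genes that passed as higher in PRKCI_KD and as lower in SOX2_KD made up 0.563% of all genes, 114 in number, and EGR1, IER2, NR4A1, KLF2 and DUSP1 were among them.

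The calls in SOX2_KD depended on single libraries for 2 genes. NR4A1 no longer passed without SOX2_KD replicate 2 (log2 fold change -0.37, SE 0.09) or replicate 3 (-0.38, SE 0.09). KLF2 no longer passed without SOX2_KD replicate 2 (-0.46, SE 0.12) or 3 (-0.49, SE 0.12) or NT2 replicate 2 (-0.49, SE 0.12) or 3 (-0.46, SE 0.12), or with a pseudocount of 5 (-0.20, SE 0.07). With the replicate number as a block, IER3 passed as lower in SOX2_KD (-0.26, SE 0.05), and the count over all genes, 1664, became 3513. Replicate 1 held the highest value of its group in 9 of the 10 genes in PRKCI_KD, 7 in NT1, 8 in SOX2_KD and 7 in NT2. The share over all genes was not computed, so nothing particular to these genes is read from these counts.

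**Figure D2:**
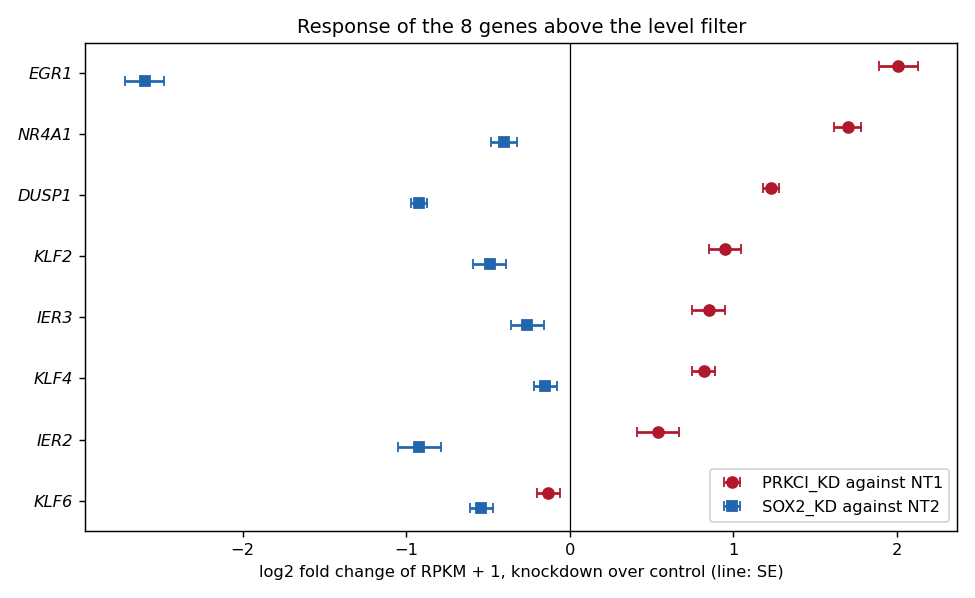
Log2 fold change of RPKM + 1 (horizontal axis, SE as lines) of the 8 genes above the level filter, PRKCI_KD against NT1 as circles and SOX2_KD against NT2 as squares. From EGR1, at 2.01 and -2.60, to IER2, at 0.54 and -0.92, each pair of symbols lies on opposite sides of 0, and for KLF6, at -0.13 and -0.54, both lie below it.

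The difference between the responses, PRKCI_KD over NT1 minus SOX2_KD over NT2, put the genes in another order. It was 4.61 for EGR1 (SE 0.16), with 2 genes of all tested higher, and 2.15 for DUSP1 (SE 0.07) and 2.1 for NR4A1 (SE 0.11). IER2 and KLF2 had close values, 1.45 (SE 0.19) and 1.44 (SE 0.15), followed by IER3 with 1.11 (SE 0.14), KLF4 with 0.97 (SE 0.10) and KLF6 with 0.41 (SE 0.10). All 8 passed as positive in the limma fit, where 26.2% of all genes passed, 11.4% as positive and 14.8% as negative. As the genes were chosen with these values known, nothing is read from this count. Each response is relative to its own control, and the controls were far apart.

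**Figure D3:**
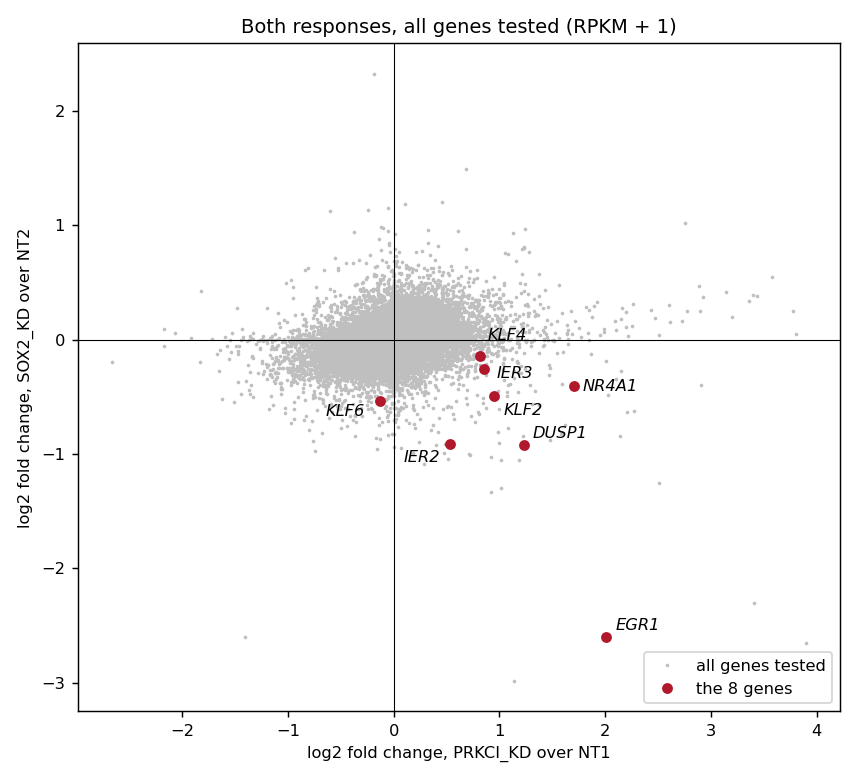
Log2 fold change of RPKM + 1 for PRKCI_KD over NT1 (horizontal axis) and in SOX2_KD over NT2 (vertical axis) for all 20244 genes tested (grey) and for the 8 genes above the level filter (red). EGR1 stands at 2.01 and -2.60, clear of the cloud, IER3 and KLF4 lie near the horizontal line, and KLF6 alone of the 8 lies left of 0.

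The non-targeting controls also differed from each other in these genes. EGR1 was 7.71 times as high in NT2 as in NT1, KLF6 4.76 times and NR4A1 4.48 times, and EGR3 averaged 0.479 ± 0.0418 RPKM in NT2 and 0.0509 ± 0.0314 RPKM in NT1 (SD, n = 3 each). KLF2 and KLF4 ran the other way, at ratios of NT2 to NT1 of 0.233 and 0.331. DUSP1, IER2 and IER3 differed least, at ratios of 1.34, 1.47 and 1.53. Of the 8 genes above the level filter, 6 passed as higher in NT2 and 2 as lower in the limma fit. Of all genes, 78.2% passed, 36.2% as higher and 42.0% as lower, and nothing is read from the counts of the 8. Group and flow cell cannot be told apart in this comparison.

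Of related and pathway genes, 101 were listed in 10 lists, also with earlier results of these data known, and 92 were tested. In PRKCI_KD, 36 rose and 17 fell, 57.6% in all against 45.1% of all genes, with a median log2 fold change of 0.07. In SOX2_KD, 4 rose and 19 fell, 25% in all against 8.22% of all genes, with a median of -0.08; the count of 23 became 37 with the replicate number as a block. Without SOX2_KD replicate 2 or 3 or NT2 replicate 1 or 2, the listed genes that passed numbered 14, 12, 15 and 13. The adjusted p of each gene below is from the limma fit over all genes. By list, the share that passed in PRKCI_KD was 85.2% of the other immediate early genes and 80% of the ERK5 and MEF2 route. It was 62.5% of the AU-rich element list, 60% of the other KLF genes and 50% each of the partners and the serum response factors. It was 37.5% of the other MAP kinase phosphatases, 33.3% of the RAS to ERK cascade and 25% each of the closest relatives and the CREB genes, below the 45.1% of all genes. These shares are from the fit without the replicate block, with which further listed genes passed. EGR4, DUSP2, DUSP9, KLF14 and ARC reached the level filter only through SOX2_KD and NT2, yet count as tested in PRKCI_KD too. The lists hold 4 to 27 tested genes, and nothing particular to a list is read from its share.

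Closest to the members are EGR4, NR4A2, NR4A3, IER5 and IER5L. NR4A2, a paralog of NR4A1, rose in PRKCI_KD, at 2.66, 2.4 and 2.79 RPKM against 1.16, 0.99 and 1.21 RPKM in NT1 (log2 fold change 0.77, SE 0.07, adjusted p = 4.72e-06). EGR4 was between 0.093 and 0.144 RPKM in PRKCI_KD and between 0.0601 and 0.184 RPKM in NT1, with no call. These values rest on 32, 21 and 20 reads against 52, 16 and 14 reads. EGR4 reached the level filter only through SOX2_KD and NT2, so nothing is read from the missing call. In SOX2_KD it fell, at 1.77, 1.27 and 1.42 RPKM against 3.05, 2.67 and 2.57 RPKM in NT2 (difference -0.60, SE 0.08, adjusted p = 0.0016). As for EGR1, EGR2 and EGR3, the EGR4 values of NT2 lay above those of the other groups. NR4A2 fell there too (-0.26, SE 0.07, adjusted p = 0.036), a call lost without any one of SOX2_KD replicates 2 and 3 (adjusted p = 0.114 and 0.143) and NT2 replicates 1, 2 and 3 (0.0839, 0.058 and 0.118). NR4A3 lay below the level filter, at 0.389, 0.375 and 0.529 RPKM in PRKCI_KD against 0.138, 0.138 and 0.142 RPKM in NT1. IER5 and IER5L did not pass in either comparison, with IER5 between 3.99 and 5.08 RPKM in all 12 libraries. With the replicate number as a block, IER5L passed as higher in PRKCI_KD (0.21, SE 0.07, adjusted p = 0.035).

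Of the partners, NAB1 and NAB2, corepressors that bind EGR proteins, rose in PRKCI_KD by 0.44 (SE 0.08, adjusted p = 0.000852) and 0.26 (SE 0.09, adjusted p = 0.0342) on the log2 scale. The call of NAB2 was lost without PRKCI_KD replicate 1 (adjusted p = 0.109) or 2 (0.0718) and without NT1 replicate 1 (0.0594) or 3 (0.111). RXRA and RXRB, partners of NR4A1 and NR4A2, did not pass, and in SOX2_KD 0 of the 4 tested partners passed in the limma fit, with 0 at an unadjusted p under 0.05.

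Among the other KLF genes, 6 of 10 tested rose in PRKCI_KD, where 18.2% of all genes passed as higher. KLF11 (0.70, adjusted p = 4.28e-07), KLF16 (0.76, adjusted p = 3.19e-05), KLF7 (0.54, adjusted p = 7.33e-05) and KLF9 (0.33, adjusted p = 0.00105) had the smallest p-values. In SOX2_KD the TGF-beta inducible KLF10 fell, at 30.9, 32.5 and 33.1 RPKM against 49.6, 50.7 and 52.9 RPKM in NT2 (-0.65 on the log2 scale, SE 0.05, adjusted p = 6.64e-05). KLF3 and KLF9 rose there by 0.23 each (adjusted p = 0.0389 and 0.0414). Both of these calls were lost without SOX2_KD replicate 2 (adjusted p = 0.153 for KLF3 and 0.136 for KLF9) or 3 (0.134 and 0.161), and in most other fits that left out a library.

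Of 8 other MAP kinase phosphatase genes, 2 passed as higher and 1 as lower in PRKCI_KD, 37.5% against 45.1% of all genes. With the replicate number as a block, DUSP8 (-0.24, adjusted p = 0.0193) and DUSP16 (0.15, adjusted p = 0.0189) also passed. The count over all genes was then 11039 instead of 9137. Whether the share lies below that of all genes depends on the fit. DUSP5, a nuclear phosphatase specific for ERK, rose to 46.6, 47.1 and 44.2 RPKM in PRKCI_KD, against 12.1, 11.2 and 13.8 RPKM in NT1 (log2 fold change 1.82, SE 0.09, adjusted p = 6.59e-08). DUSP10 fell (-0.29, adjusted p = 0.00489). DUSP9 passed as higher (0.22, adjusted p = 0.0107), but not with a pseudocount of 5 (adjusted p = 0.153) or with quantile normalization (0.0814). DUSP9 averaged 0.199 RPKM in PRKCI_KD and 0.03 RPKM in NT1, from 38, 54 and 60 reads against 6, 16 and 3 reads. It reached the level filter only through SOX2_KD and NT2, so nothing is read from its call. DUSP6, the cytoplasmic ERK phosphatase, was at 16.2, 17 and 15.5 RPKM in PRKCI_KD against 18, 12.4 and 21.3 RPKM in NT1, and did not pass, except without NT1 replicate 2 (-0.26, adjusted p = 0.015). In SOX2_KD, DUSP6 fell to 2.5, 2.53 and 2.55 RPKM, against 5.11, 5.4 and 5.3 RPKM in NT2 (-0.83, SE 0.14, adjusted p = 0.00504). DUSP2 (-0.44, adjusted p = 0.00103) and DUSP10 (-0.29, adjusted p = 0.0262) also fell there, and DUSP10 did not pass without any one of the SOX2_KD replicates (adjusted p = 0.0749, 0.089 and 0.0802) or without NT2 replicate 1 (0.0625) or 2 (0.0971).

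The list of other immediate early genes held 27 tested members, of which 17 rose and 6 fell in PRKCI_KD, while 2 rose and 10 fell in SOX2_KD. Of all genes, 18.2% passed as higher and 26.9% as lower in PRKCI_KD, and 3.60% and 4.62% in SOX2_KD. Their median log2 fold change was 0.51 in PRKCI_KD and -0.19 in SOX2_KD. ATF3, a stress-induced factor of the CREB family, rose in PRKCI_KD by 2.15 (SE 0.05, adjusted p = 1.76e-10), FOSB of the AP-1 factor by 3.40 (SE 0.14, adjusted p = 1.86e-08), and the secreted matricellular protein genes CYR61 and CTGF by 2.51 and 1.18. In SOX2_KD, CTGF fell (-1.05, SE 0.06, adjusted p = 6.64e-06), as did FOSB (-2.30, SE 0.14, adjusted p = 9.3e-06), CYR61 (-1.26) and FOS (-2.65, SE 0.26, adjusted p = 0.000369). The genes that rose in PRKCI_KD and fell in SOX2_KD numbered 9: FOS, FOSB, JUNB, CYR61, CTGF, RHOB, ZFP36, NFKBIZ and HBEGF. Over all genes, 0.563% did so. The list was chosen with earlier results of these data known, and nothing is read from its counts. In SOX2_KD, NFKBIZ did not pass without SOX2_KD replicate 1 or 3 or without any one NT2 library (adjusted p between 0.07 and 0.121), nor HBEGF without any one SOX2_KD library or without NT2 replicate 1 or 2 (between 0.0532 and 0.0769). The 2 that rose in SOX2_KD were GADD45B and ATF3, named after their values were seen. ATF3 did not pass there without any one SOX2_KD or NT2 library (adjusted p between 0.0759 and 0.118), and no gene of the list rose without SOX2_KD replicate 1 or 3 or NT2 replicate 2 or 3.

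The log2 fold changes of the upstream factors and kinases lay between -0.47 and 0.52 in both knockdowns. Of 6 serum response and ternary complex genes, MKL2, ELK3 and MKL1 fell in PRKCI_KD (-0.47, -0.34 and -0.40; adjusted p = 6.01e-05, 0.000402 and 0.0106), and SRF itself was at 22.9, 21.4 and 21.1 RPKM in PRKCI_KD and 22.3, 20.7 and 19.1 RPKM in NT1. Of 8 CREB genes, CREB1 fell (-0.31, adjusted p = 0.0167) and CRTC3 rose (0.15, adjusted p = 0.0406, lost without PRKCI_KD replicate 1 or 3 at adjusted p = 0.131 and 0.0853, without NT1 replicate 2 or 3 at 0.0748 and 0.119, and without SOX2_KD replicate 2 or NT2 replicate 2 at 0.0573 and 0.053). Of the 5 genes of the ERK5 and MEF2 route, MEF2D (0.52, adjusted p = 0.00104), MEF2C (0.35), MAP2K5 (0.26) and MEF2A (0.23, adjusted p = 0.052 without PRKCI_KD replicate 3) rose in PRKCI_KD. In the RAS to ERK cascade, 2 of 12 rose in PRKCI_KD, MAP2K1 (0.42, adjusted p = 7.36e-06) and BRAF (0.45, adjusted p = 0.000667), and 2 fell, NRAS (-0.44, adjusted p = 0.00289) and HRAS (-0.46, adjusted p = 0.0153). HRAS did not pass without PRKCI_KD replicate 2 (adjusted p = 0.0511) or NT1 replicate 1 (0.0586). In SOX2_KD, 1 gene of these 4 lists passed, MAPK7, the gene of ERK5 (-0.46, adjusted p = 0.0384), and it did not pass with quantile normalization (adjusted p = 0.0749) or median-of-ratios scaling (0.0552), or without SOX2_KD replicate 2 (0.141) or 3 (0.13), NT2 replicate 1 (0.113), 2 (0.0707) or 3 (0.073), PRKCI_KD replicate 2 (0.0541) or NT1 replicate 2 (0.0554).

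Of 8 genes listed for proteins that act on messages with AU-rich elements, 4 fell in PRKCI_KD and 1 rose. Over all genes, 26.9% passed as lower there and 18.2% as higher. ELAVL1, whose product HuR stabilizes such messages, fell (-0.63, SE 0.04, adjusted p = 1.2e-06), and PARN, HNRNPD and TIA1 also fell. TIA1 did not pass without PRKCI_KD replicate 1 or 3 or NT1 replicate 3 (adjusted p = 0.0998, 0.0799 and 0.114), or with either other scaling (0.0865 and 0.0645). ZFP36L1, whose product promotes decay, rose by 0.28 (adjusted p = 0.00788). In SOX2_KD, ZFP36L2 fell (-0.32, adjusted p = 0.0124; 0.0629 and 0.051 without SOX2_KD replicate 2 or 3). ELAVL1 also fell there (-0.19, adjusted p = 0.025), with quantile normalization at adjusted p = 0.0993, median-of-ratios scaling at 0.0608, and values between 0.0612 and 0.0957 without any one SOX2_KD or NT2 library.

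**Figure D4:**
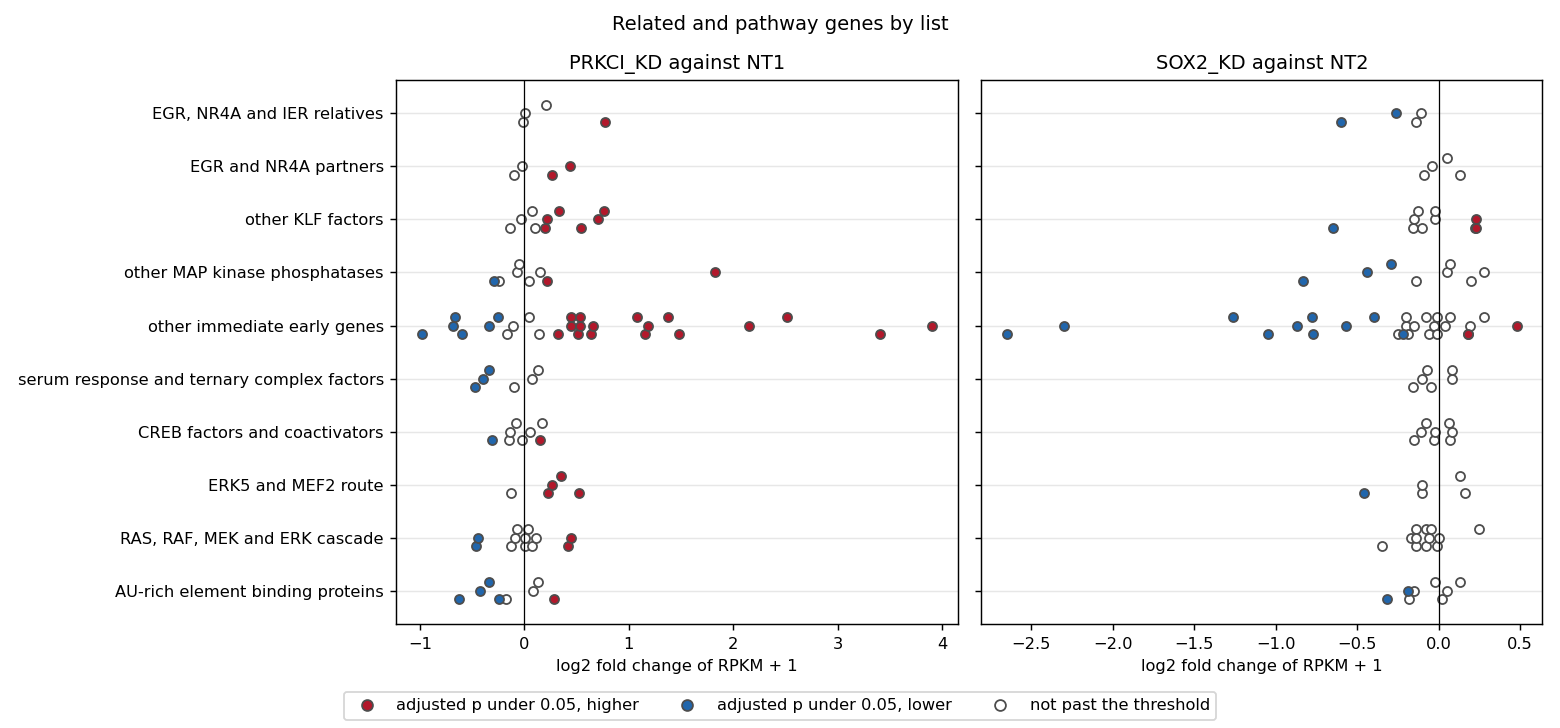
Log2 fold change of RPKM + 1 (horizontal axis) of the 92 tested related and pathway genes by list, PRKCI_KD against NT1 on the left and SOX2_KD against NT2 on the right; filled points passed an adjusted p of 0.05. Of the 27 other immediate early genes, 17 lie among the filled points right of 0 in PRKCI_KD and 10 among those left of 0 in SOX2_KD. Over all genes, 18.2% passed as higher in PRKCI_KD and 4.62% as lower in SOX2_KD. The upstream factors and kinases lie between -0.47 and 0.52.

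The genes most like EGR1 were sought over the 12 libraries, after subtracting from each library the mean log2(RPKM + 1) of its own control group. Likeness was the root mean square difference of these profiles, which was 1.66 for the median gene. FOSB and CYR61 came closest, at 0.72 each, followed by the mitochondrial transfer RNA genes MT-TF and MT-TA and by CTGF, all at 0.89. Of the other members, DUSP1 was nearest to EGR1, at 0.93, and KLF6 farthest, at 1.49. Around the mean of the 8 members, where the median gene stood at 0.66, DUSP1 lay closest of the members, at 0.14, and EGR1 farthest, at 1.05. The non-members closest to that mean were ZFP36 (0.07), which encodes tristetraprolin, a protein that binds AU-rich elements and promotes decay, OASL (0.11), TMEM88B (0.12), MMP9 (0.15) and CHAC1 (0.17). ZFP36 was at 55.2, 47.7 and 44.8 RPKM in PRKCI_KD, against 24.9, 22.2 and 21.1 RPKM in NT1, and at 31.6, 28.1 and 27.7 RPKM in SOX2_KD, against 55, 48.7 and 48.1 RPKM in NT2. The likeness is a description over 12 libraries, in which each knockdown was centred on the control of its own flow cell.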

How the data were processed

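RNA was sequenced from 12 libraries of H1299 spheroids; per the labels' protocols, 120 ng of total RNA went into a kit that does not mark strand, with paired reads of 101 bases. TopHat2 2.1, Bowtie 1.1.2, featureCounts and the build GRCh38 are named in the submitters' processing notes; the choice of annotation, strand setting and denominator is not given in the sources used here. RPKM values were deposited by the authors, 1 column per library, per the file headers. Of 64253 entries, 29 named as dates were left out, and of 1487 repeated names 871 with a single row above 0 were kept, IER3 among them. Read totals were recovered from the steps between low values, and gene lengths by search up to 20000 bases for whole reads within 0.001; all 10 members gave whole reads, at lengths 1 base above the summed exons of GENCODE 29.

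Genes that reached 0.5 RPKM in 3 or more libraries entered a limma-trend fit (limma 3.58.1 under R 4.3.3) of log2(RPKM + 1), a single fit of the 4 groups (8 residual and 2.97 prior degrees of freedom). P-values were adjusted by Benjamini-Hochberg over 20244 genes, with a threshold of 0.05. Fold changes on this scale understate those of low genes. Members and lists were chosen with earlier results of these data known. The genes named from lists are up to 4 per list and comparison with the smallest adjusted p; others are named where a count is small or a member is set beside them. Equal replicate numbers deviated together in SOX2_KD and NT2 (correlations across genes 0.502, 0.237 and 0.237). SOX2_KD replicate 2 correlated nearly as much with NT2 replicate 3 (0.234), and SOX2_KD replicate 3 with NT2 replicate 2 at 0.125. The values thus set replicate 1 apart in both groups and do not settle a pairing of replicates 2 and 3. In PRKCI_KD and NT1 equal numbers did not deviate together throughout (0.487, -0.113 and 0.344). The fit behind the printed SEs, calls and counts has no replicate block. The block was an alternative, and its value stands beside the members whose call it changes and beside some counts and listed genes. It also changed the calls of further listed genes, which are not printed. Alternatives were 2 pseudocounts, no level filter, 2 scalings, a fit of 6 libraries, the replicate block, and leaving out each library. Motifs were searched on both strands of RefSeq promoter windows of GRCh38.p14; positions are from GENCODE 29.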

Additional observations from a re-analysis of the deposited data

How the results depend on the processing

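Every log2 fold change of the 8 members above the level filter kept its sign in both knockdowns, in 152 of 152 values each, under the alternatives run. The side of the threshold was kept in 151 of 152 values in PRKCI_KD, where KLF6 passed with the replicate block (-0.13, SE 0.03), and in 144 of 152 in SOX2_KD, where IER3, NR4A1 and KLF2 were the exceptions. In the difference between the responses and in NT2 against NT1 all 144 values kept sign and side. The log2 fold change of NR4A1 in PRKCI_KD ranged from 0.69 to 2.75 with the pseudocount. The count of genes that passed for SOX2_KD against NT2, 1664, was 3513 with the replicate block and lay between 667 and 2302 when a library was left out; it was 681 without SOX2_KD replicate 2, 667 without replicate 3, 1072 without replicate 1, 873 without NT2 replicate 2 and 915 without NT2 replicate 3. The 23 listed genes that passed there became 37 with the replicate block and 12 to 30 without a library. The direction of calls in SOX2_KD depended on scaling, with 729 higher and 935 lower, against 770 and 591 with quantile normalization and 924 and 744 with median-of-ratios scaling. The causes were not tested. EGR2 and EGR3 are limited by depth, with as few as 29 and 7 reads in a library.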
